A study of Mus musculus with 65 samples.

Results

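TAL1 sites within gene bodies are stretches of chromatin inside protein-coding genes, away from their promoters, where TAL1 was found by ChIP-seq in maturing mouse erythroid cells. They were chosen from the peak lists of 10 TAL1 libraries assessed as Pass. Peaks sharing at least 1 bp were merged into 11582 intervals, and the 4568 intervals called in 5 or more of the 10 lists were kept. Of these, 2473 overlapped a protein-coding gene of the GENCODE annotation of mm10 (GRCm38), lay more than 1000 bp from every protein-coding transcript start, and overlapped no peak of CTCF library 695. They made up 54.1% of the kept sites. The other kept sites were 1278 between genes, 577 at promoters and 240 that overlapped a CTCF peak.

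All 19 TAL1 libraries came from 1 mouse line, G1E-ER4, which had been kept for 24 hours in β-estradiol at 10 nM. Cells so treated are called G1E-ER4+E2. The line derives from embryonic stem cells that lack GATA1 and carries a GATA1 fused to the estrogen receptor ligand domain, so every library shares the gene loss, the fusion and the hormone. In part of these libraries the study varied the number of starting cells and how far the chromatin was sheared. It took the rest from earlier work under various conditions. By inspection of signal tracks it graded each library as Pass (10 libraries, 190 to 298 bp of mean chromatin length), Low pass (4 libraries, 176 to 289 bp) or Fail (5 libraries, 166 to 297 bp). Some Pass libraries were made with another fixative, and the labels do not say which. Libraries are named below by grade and length; whether they came from separate cultures is not stated, so p-values measure only the spread between libraries. The lists held 2670 to 9763 peaks in Pass, 1212 to 2751 in Low pass and 204 to 606 in Fail libraries. Sequencing depth is unknown, since read numbers are not part of these files. In the Pass lists, which chose them, 53.0% to 99.9% of members were called. This was 87.5% at 240 bp (87.7% of all kept sites), 99.7% at 226 bp (99.7%), 99.8% at 205 bp (99.9%), 78.6% at 256 bp (80.1%), 80.02% at 202 bp (81%), 72.1% at 190 bp (73%), 99.9% at 298 bp (99.9%), 66.8% at 269 bp (66.1%), 53.0% at 238 bp (55.3%) and 80.8% at 221 bp (82.4%).

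The Pass library of 221 bp is titled TAL1, but its antibody label names CTCF. Of its peaks, 79.3% lay in TAL1 sites called in 5 or more of the other 9 Pass lists, against 40.9% to 94.0% for the other lists tested the same way. Only 4.26% lay in peaks of CTCF library 695, against 3.81% to 4.95% for the other TAL1 lists. It was kept. Without it, sites called in 5 or more of the other 9 lists gave 2302 members in 1701 genes, 435 of which hosted 2 or more, with a median percentile of rank of 57.1 (54.8 with it, as explained below) and with 6 members in Sgms1. Each of the 6 tests below kept its direction and its side of the threshold without it.

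TAL1 is a basic helix-loop-helix protein that red cell precursors need. With an E protein partner it contacts an E-box, and through LMO2 and LDB1 it forms a complex with GATA factors, so that many of its sites in erythroid cells pair part of an E-box with a GATA element a fixed distance away. Such sites are often enhancers, and many enhancers lie in introns of the gene they serve or of a neighbour.

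The composite searched for was CTG, then 8 bases of any kind, then a GATA element, which is AGATAA or a variant of it that starts with T, ends in G or does both, on either strand of the 300 bp around the centre of a site. The stretches below show it in intronic members that the text returns to, with 22 bases on each side and with CTG and the GATA element in capitals. Each is read 5′ to 3′ on the strand that carries the composite, from the RefSeq copy of GRCm38.
Lrpprc, intron 2, chr17:84776751-84776811, plus strand: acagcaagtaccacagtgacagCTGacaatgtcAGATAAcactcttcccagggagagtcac
Tspan33, intron 1, chr6:29701296-29701356, plus strand: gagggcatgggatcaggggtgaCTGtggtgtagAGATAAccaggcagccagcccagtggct
Lipc, intron 1, chr9:70834995-70835055, minus strand: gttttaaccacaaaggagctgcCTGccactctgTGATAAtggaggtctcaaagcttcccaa
Samd14, intron 1, chr11:95012307-95012367, plus strand: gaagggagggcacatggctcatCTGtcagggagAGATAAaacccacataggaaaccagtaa
Zfpm1, intron 1, chr8:122287090-122287150, minus strand: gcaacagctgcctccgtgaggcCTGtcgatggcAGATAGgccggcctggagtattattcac
Runx1, intron 2, chr16:92801719-92801779, minus strand: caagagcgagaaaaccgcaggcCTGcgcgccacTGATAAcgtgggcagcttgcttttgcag
Gata2, intron 4, chr6:88203166-88203226, plus strand: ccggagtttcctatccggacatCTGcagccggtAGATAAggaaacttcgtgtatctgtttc
Alas2, intron 1, chrX:150549832-150549892, minus strand: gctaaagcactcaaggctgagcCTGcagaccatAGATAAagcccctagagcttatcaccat
Sptb, intron 1, chr12:76673881-76673941, minus strand: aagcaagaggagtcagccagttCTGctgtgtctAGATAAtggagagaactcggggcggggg
Ank1, intron 1, chr8:23054182-23054242, minus strand: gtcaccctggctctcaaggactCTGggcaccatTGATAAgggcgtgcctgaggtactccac
Bcl2l1, intron 2, chr2:152817719-152817779, minus strand: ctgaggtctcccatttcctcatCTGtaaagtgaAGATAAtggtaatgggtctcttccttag
Kit, intron 7, chr5:75624445-75624505, plus strand: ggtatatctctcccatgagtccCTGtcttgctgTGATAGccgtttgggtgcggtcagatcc
Rere, intron 12, chr4:150585990-150586050, plus strand: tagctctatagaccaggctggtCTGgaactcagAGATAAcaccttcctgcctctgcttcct

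Members of high rank did not all carry it. The next 3 stretches come from members among the 10 of highest rank that had no composite, with the GATA element nearest the centre in capitals and 22 bases on each side.
Tmem131, intron 2, chr1:36920171-36920220, minus strand: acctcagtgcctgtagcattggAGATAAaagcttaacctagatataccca
St3gal2, intron 1, chr8:110929221-110929270, plus strand: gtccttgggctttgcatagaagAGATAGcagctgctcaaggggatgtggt
Fryl, intron 3, chr5:73191998-73192047, plus strand: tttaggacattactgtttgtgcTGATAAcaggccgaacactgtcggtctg

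The composite was present in 659 members, which is 26.6% (Wilson 95% interval 24.9% to 28.4%). It was present in 1.19% of the 2799126 windows of 300 bp tiled over introns of protein-coding genes more than 1000 bp from a start. A GATA element of any of these forms, which the composite also contains, was present in 89.9% of members and 48.7% of intron windows. The E-box form CAGCTG, or else the form CAGATG, was present in 49.9% of members and 30.4% of intron windows. The shares in members lay near those of TAL1 sites between genes, where 27.0% held the composite, 92.3% a GATA element and 50% one of these E-box forms. These shares are a description, since the peaks themselves chose the members.

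The spacing of 8 bases stood out. With the number of bases between CTG and the GATA element set at each value from 0 to 20, 659 members had a match at 8, 308 at 7 and 236 at 9. At the 18 other spacings the count ranged from 92 to 174 with a median of 122. In intron windows the share with a match ran from 1.11% to 1.67% over the same spacings and had no peak at 8. Allowing 7 to 9 bases gave a composite in 45.4% of members.

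**Figure D1:**
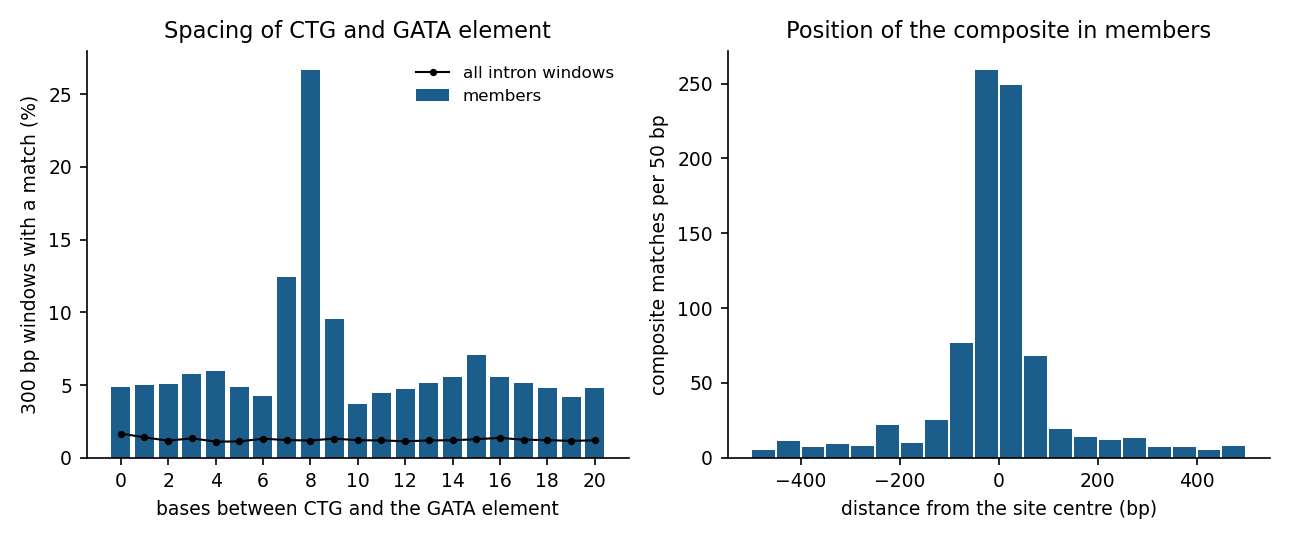
Left: share of 300 bp windows with CTG and a GATA element at each spacing from 0 to 20 bases, for members (bars) and for windows tiled over introns (line). Right: number of composite matches per 50 bp by distance from the centre of the members, over 1000 bp. Members peak at 8 bases (26.6%), and 508 of 835 matches lie within 50 bp of the centre.

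The composite lay close to the middle of the sites. In the 1000 bp around the centres of all members there were 835 matches, with a median distance of 36.5 bp from the centre. Of these, 508 (60.8%) lay within 50 bp, while each of the 8 outermost bins of 50 bp held 5 to 11. The GATA element was AGATAA in 45.4% of the 689 matches of the 300 bp windows, TGATAA in 26.3%, AGATAG in 19.0% and TGATAG in 9.29%. In 14.5% of matches CTG ended a full E-box, CANNTG, for instance in Samd14 and Gata2 above. The composite was on the coding strand of the host in 357 matches, or 51.8%. Only 19 matches, the one in Rere among them, lay wholly in repeat-masked sequence, which covered 13.1% of the bases of the members' windows and 29.1% of those of intron windows. Of the members with a composite, 639 had 1 match and 20 had 2 or more.

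The 9 Low pass and Fail libraries had no part in choosing the members. Their grades came from inspecting signal tracks at known loci, where Low pass libraries missed some peaks and Fail libraries showed almost none. Lower shares in lower grades were thus largely set by the grading. The shares below show how far each list called these sites. The Low pass list of 260 bp called 57.1% of members, that of 176 bp 32.0%, that of 289 bp 29.3% and that of 263 bp 24.9%. The same lists called 57%, 33.3%, 30.8% and 25.2% of all 4568 kept sites. Among Fail libraries the list of 183 bp called 5.86% of members, that of 295 bp 3.19%, that of 273 bp 1.05%, that of 166 bp 0.970% and that of 297 bp 0.0809%. Of all kept sites they called 6.59%, 3.66%, 1.12%, 1.4% and 0.131%. Low pass lists thus averaged 35.8% ± 14.5 (SD, n = 4) of members and Fail lists 2.23% ± 2.33 (SD, n = 5). No Fail list reached the lowest Low pass list, but list sizes left little room for it. The Low pass list of 263 bp called 616 members, while the largest Fail list, of 166 bp, held 606 peaks in all. At least 1 Low pass list called 1522 members (61.5%, beside 61.6% of all kept sites), all 4 called 443 (17.9%, beside 18.4%), and at least 1 Fail list called 202 (8.17%, beside 9.04%). None of the 9 lists called the other 949.

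**Figure D2:**
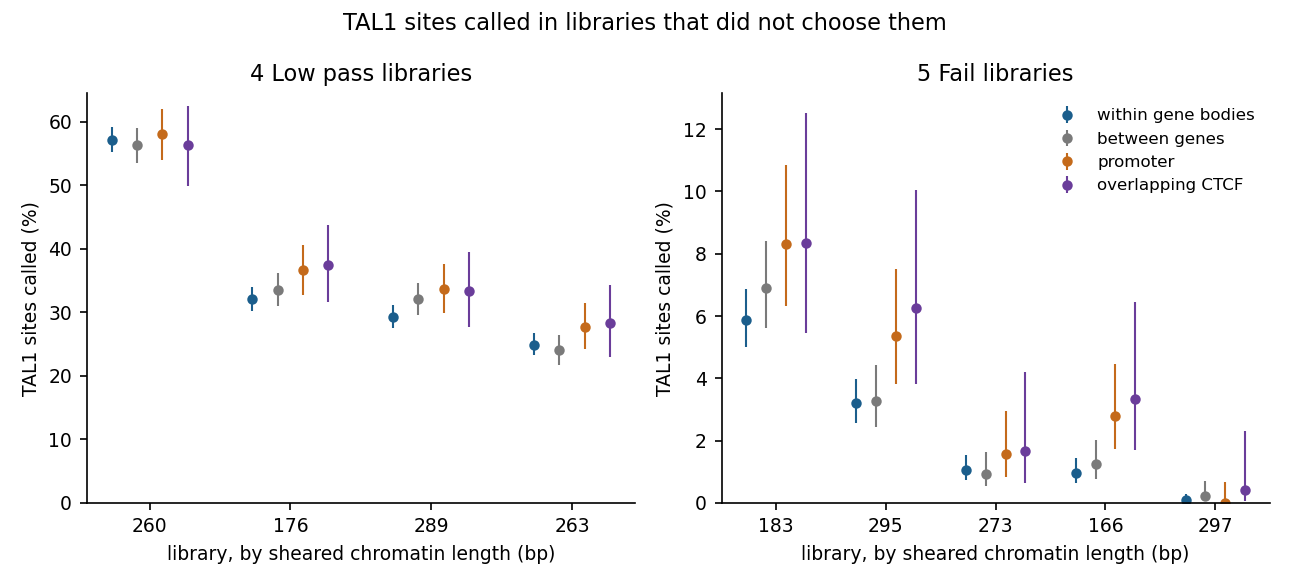
Share of TAL1 sites called (vertical axis, %) in each of the 4 Low pass (left) and 5 Fail libraries (right), ordered by the value of gene body sites and named by sheared chromatin length in bp, for sites within gene bodies, between genes, at promoters and overlapping CTCF. Points are shares and bars Wilson 95% intervals; gene body sites run from 57.1% to 24.9% in Low pass and from 5.86% to 0.0809% in Fail libraries.

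Gene body sites were called less often than promoter sites in 8 of 9 libraries. Over the 9 libraries, 17.2% ± 19.9 (SD) of gene body sites and 19.3% ± 20.5 of promoter sites were called, a mean difference of -2.17 percentage points ± 1.60 (SD). An exact two-sided sign-flip permutation over the libraries gave p = 0.00781, adjusted p = 0.0234 over 6 such tests, where the smallest p that 9 libraries allow is 0.00391. Against TAL1 sites that overlapped CTCF the difference was -2.32 points ± 1.996, again lower in 8 of 9 libraries (exact permutation p = 0.0156, adjusted p = 0.0313). With sites called in 8 or more lists it was -1.57 points (adjusted p = 0.170) and with all 10 lists -2.48 points (adjusted p = 0.0781). Leaving out the Low pass library of 176, 289 or 263 bp or the Fail library of 183 bp took that adjusted p to 0.0625, and leaving out the Fail library of 166 bp took it to 0.0586. Median rank in the Pass lists, explained below, was 54.8 in gene body sites, 57.5 in promoter sites and 59.5 in CTCF-overlapping sites, and its part in these differences was not tested.

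Gene body sites and sites between genes differed by less than the spread between libraries. The mean difference was -0.43 points ± 1.15 (SD, 9 libraries), with gene body sites higher in 3 libraries and lower in 6 (exact permutation p = 0.305, adjusted p = 0.366). With each Pass library held out in turn, and sites set from the other 9 lists, the difference was -1.17 points and its adjusted p from the exact permutation over the 10 libraries was 0.00586. The difference from promoter sites was then -2.09 points with an adjusted p of 0.15. Each Pass list here also helped to set the sites scored in the other 9, so the 10 differences are not independent units for this test. With a -log10 p of at least 10 in every list, the difference from sites between genes was 0.20 points (adjusted p = 0.516).

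Members with the composite were called more often than members without it, in 8 of 9 libraries. In the Low pass list of 260 bp the shares were 60.4% and 56.0%, in that of 176 bp 39.0% and 29.5%, in that of 289 bp 35.1% and 27.2%, and in that of 263 bp 31.0% and 22.7%. In Fail lists they were 7.74% and 5.18% (183 bp), 4.70% and 2.65% (295 bp), 1.67% and 0.827% (273 bp), 1.37% and 0.827% (166 bp), and 0 of 659 and 0.110% (297 bp). The mean difference was 3.99 points ± 3.68 (SD, 9 libraries; exact permutation p = 0.00781, adjusted p = 0.0234). Leaving out any 1 library kept it between 3.31 and 4.51 points. Median rank in the Pass lists was 58.4 with the composite and 53.5 without, and median width 1026 and 1027 bp; the part of rank was not tested.

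Rank is given as a percentile, the percent of a list's peaks whose fold enrichment is at or below that of the strongest peak in the site, and for a site as the median over the Pass lists that called it. Fold enrichment is the ratio of signal to background that the peak caller gave. Members had a median percentile of 54.8 (quartiles 40.7 and 72.9), and sites between genes 54.6. The Pass lists with most peaks placed members higher, with a median percentile of 76.0 in the list of 9763 peaks (298 bp) against 52.8 in that of 2670 peaks (238 bp). Members needed calls in 5 or more lists, and 25.5% of the peaks of the former list lay in members against 49.4% of the latter. The part of this in the higher percentile was not tested. Of the members, 977 (39.5%) were called in all 10 lists, 361 in 9, 258 in 8, 249 in 7, 268 in 6 and 360 in 5. Median percentile was 39.0 for members in 5 lists and 78.1 for those in all 10, and median width 912 and 1134 bp. Just outside the threshold, 594 further gene body intervals were called in 4 lists, with a median percentile of 35.2, a median fold enrichment of 10.1 and a median width of 871 bp. Those in 5 lists had a median fold enrichment of 10.7. Low pass lists called a mean of 1.73% of the former and 2.64% of the latter, against 70.8% of the members in all 10 lists.

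The 10 members of highest median percentile among those in all 10 lists came from 10 genes. The highest lay in intron 2 of Lrpprc, which encodes a mitochondrial protein that stabilises messenger RNA, with a fold enrichment of 56.4 at the lowest, 98.4 at the median and 186 at the highest over the 10 Pass lists. It was the strongest or nearly the strongest peak of every one of them, with a lowest percentile of 99.9. In the Low pass lists of 260, 176, 289 and 263 bp its fold enrichment was 60.6, 48.1, 27.3 and 37.4, and 4 of 5 Fail lists called it, missing it only at 297 bp.

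The second lay in intron 1 of Tspan33, a tetraspanin gene active in erythroid progenitors, with fold enrichments of 58.0, 85.6 and 177 (lowest, median and highest of 10). The third lay in intron 1 of Gypc, which encodes glycophorin C of the red cell membrane, with 56.3, 80.2 and 162. The fourth lay in intron 1 of Lipc, the gene of hepatic lipase, with 46.04, 79.5 and 132, and the fifth in intron 1 of Samd14, with 44.3, 78.3 and 127. Samd14 is known for an intronic enhancer of this composite type that acts in red cell regeneration. All 5 held the composite. The sites in Uba7 (intron 21, an enzyme that activates the ubiquitin-like ISG15), Tmem131 (intron 2), St3gal2 (intron 1, a sialyltransferase), Fryl (intron 3) and Fam126a had median fold enrichments from 68.2 to 73.3 and no composite. Those in Uba7 and Fam126a also had no GATA element of the 4 forms within the window, and the Fam126a site lay outside the transcript chosen for that gene.

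All 4 Low pass lists called each of these 10 sites, and 2 to 4 of the 5 Fail lists did. In the Low pass list of 260 bp they lay at percentiles of 98.0 to 99.9 and in that of 176 bp at 97.0 to 100. In those of 289 and 263 bp the Tspan33 site lay at 100 and 98.2, and the Fryl site at 94.8 and 98.8. The Fail lists differed more, since the Lrpprc site lay at a percentile of 97.9 in the list of 295 bp and at 13.2 in that of 273 bp. Over all members, 15 were called in 3 or more Fail lists (0.607%, beside 0.963% of all kept sites), and the 3 called in 4 of them were the sites in Lrpprc, Gypc and Tmem131.

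Most members were intronic, but the share of gene body bases in introns is not given beside this, so no preference for introns is shown. In the transcript of longest coding sequence of each host, 2155 members (87.1%) had their centre in an intron, 58 in a coding exon, 62 in a 3′ UTR and 3 in a 5′ UTR, while 193 lay in the gene but outside that transcript and 2 in genes with no protein-coding transcript in the set. The introns that held a member had a median length of 14009 bp, against 1334 bp over all introns of the chosen transcripts. The latter counts each intron once, whatever its length. No median weighted by bases was computed, so the gap alone shows no preference for long introns. The median distance from the host's start to the member was 22516 bp (quartiles 8611 and 57659 bp), and 697 members (28.2%) lay within 10 kb of it. From the start to the end of the host, each successive 20 percent of its length held 582, 586, 487, 412 and 406 members.

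First introns held a larger share of the members than of the bases. They held 853 members, 34.5% of all members (Wilson 95% interval 32.6% to 36.4%), and 21.4% of the 1003 Mb of gene body more than 1000 bp from every start. Of the intronic members, 39.6% lay in intron 1, 17.4% in intron 2, 8.26% in intron 3, 13.1% in introns 4 to 6 and 21.7% in later ones, where 25.1%, 15.4%, 10.5%, 17.8% and 31.2% of the intron bases lay. Density was 3.85 members per Mb in first introns and 2.74, 1.92, 1.79 and 1.70 in the later groups in turn. Within the genes that hosted members it was 21.6 per Mb of first introns and 9.61 per Mb of introns 7 and later. With a promoter distance of 2000 bp the share of members in first introns was 32.3%.

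**Figure D3:**
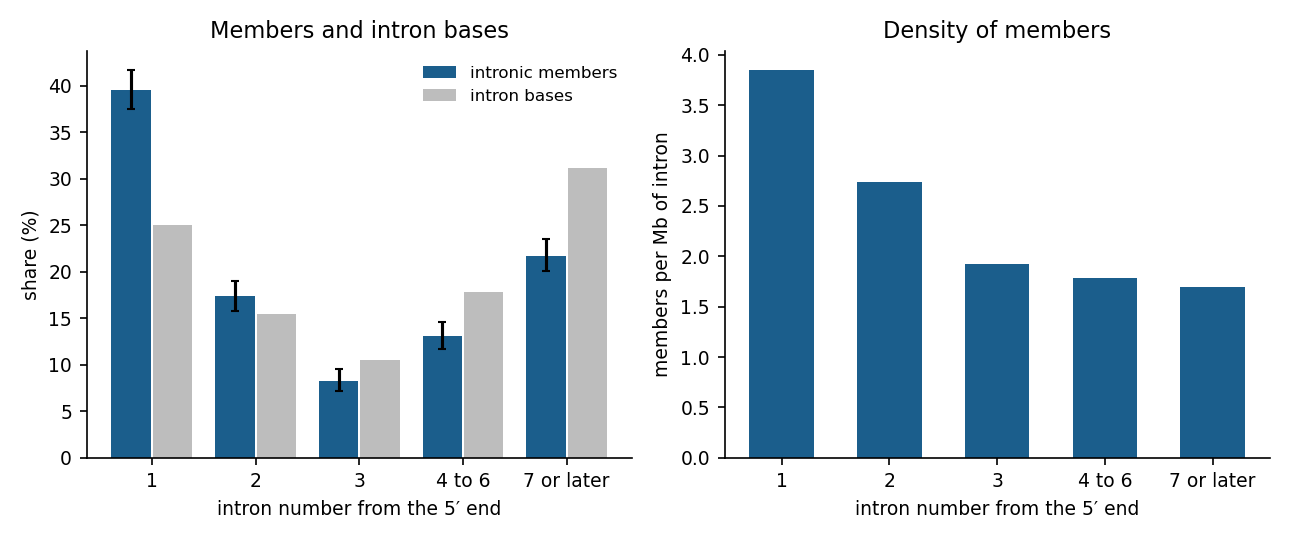
Left: share (%) of the 2155 intronic members and of the intron bases more than 1000 bp from every transcript start, by intron number from the 5′ end, with Wilson 95% intervals on the members. Right: members per Mb of intron, which falls from 3.85 in first introns to 1.70 in introns 7 and later.

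Rank did not follow intron number in this way. The median percentile was 54.1 in first introns and from 53.2 to 55.9 in the other bins. The composite was present in 23.0% of members in first introns and in 34.4% of those in introns 4 to 6. In the 9 libraries with no part in the choice, members of first introns (16.9% called) and of other introns (16.9%) differed by -0.04 points ± 0.73 (SD; exact permutation p = 0.867, adjusted p = 0.867). The difference changed sign under 4 of the alternatives run, and with a -log10 p of at least 10 it was 1.12 points with an adjusted p of 0.0234.

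Members lay in 1792 of 21938 protein-coding genes (8.17%), and 476 genes (2.17%) hosted 2 or more. A single member was found in 1316 genes, 2 in 301, 3 in 111, 4 in 38, 5 in 13, and 6 or more in 13. Hosts were long, with a median of 42.9 kb where they held 1 member, 77.8 kb with 2, 100.2 kb with 3, 131 kb with 4 or 5 and 267 kb with 6 or more, against 17.4 kb over all protein-coding genes. The share of genes that hosted a member was 1.34% of those under 10 kb, 6.51% at 10 to 30 kb, 14.7% at 30 to 100 kb and 21.6% at 100 to 300 kb, and was 15.1% in genes of 300 kb or more. Counted per Mb of gene body more than 1000 bp from a start, however, members were at 4.29, 4.34 and 3.97 in the 3 shorter groups, 2.36 at 100 to 300 kb and 0.533 in the longest genes. This density counted a member once for each gene it overlapped. The shares and densities by gene length left out genes with only read-through transcripts, which the host counts and median lengths kept.

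**Figure D4:**
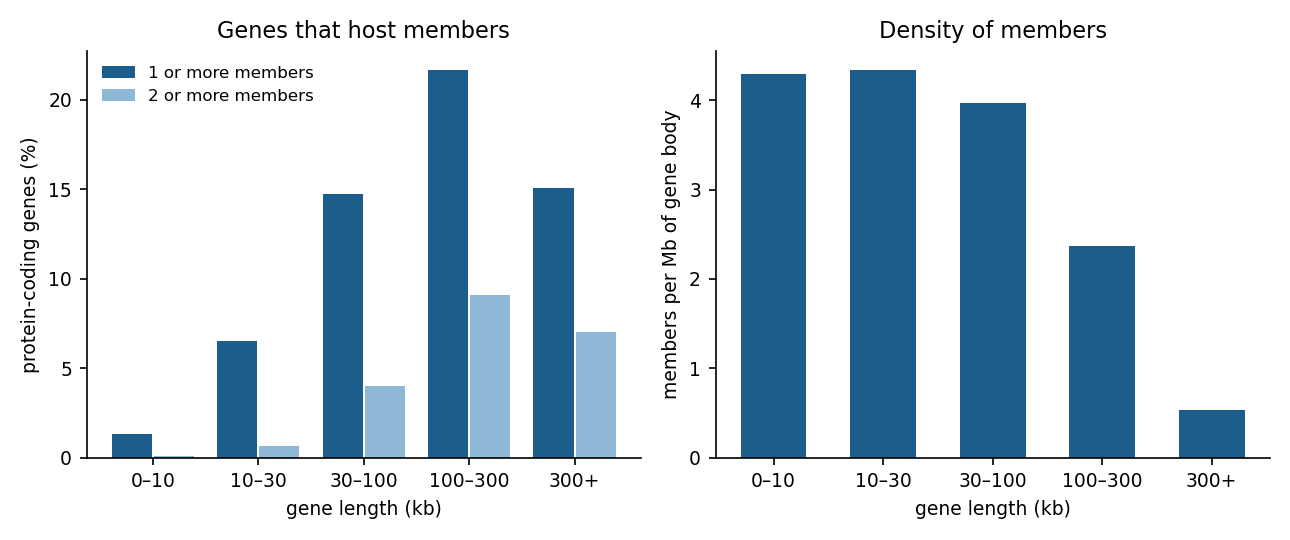
Left: share (%) of protein-coding genes that host 1 or more and 2 or more members, by gene length in kb. Right: members per Mb of gene body more than 1000 bp from every start, with a member counted once for each gene it overlaps. The share of hosts rises to 21.6% at 100 to 300 kb while the density falls from 4.29 per Mb in the shortest to 0.533 per Mb in the longest genes; genes with only read-through transcripts are left out.

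Members of hosts with several sites were called somewhat more often than lone members in the 9 libraries that did not choose them, with means of 18.2% and 16.2%. The difference was 2.01 points ± 2.08 (SD), positive in 8 of 9 libraries (exact permutation p = 0.0273, adjusted p = 0.0410). In the Low pass lists it was 4.43 points at 260 bp, 4.48 at 176 bp, 3.48 at 289 bp and 4.06 at 263 bp, and in the Fail lists -0.52 at 295 bp, 0.18 at 166 bp, 1.46 at 183 bp, 0.50 at 273 bp and 0.0011 at 297 bp. It is not firm, since leaving out any of the 4 Low pass libraries or the Fail library of 183 bp took the adjusted p to 0.0820, leaving out the Fail library of 166 or 273 bp took it to 0.0586, and with sites called in all 10 lists the difference was 0.00367 points. Members of hosts with several sites had a median percentile of 56.2 and a width of 1045 bp, against 53.3 and 1009 bp, and the part of either was not tested. A member counted as in such a host if any gene it overlapped held several, including the read-through loci described next.

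The gene with most members by the annotation was Gm20388, a read-through locus of 4435 kb on chromosome 8 that spans many other genes and held 43, and another read-through locus, Gm37240, held 6 in 1391 kb. Over all 144 genes with only read-through transcripts, 70 members were hosted, of which 19 had no other host. Without these genes 1777 hosts and 469 hosts of 2 or more remained, and the most members in 1 gene were the 11 of Gse1.

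Gse1 encodes a coiled-coil protein found in complexes that repress transcription. Its 11 members spread over 246504 bp of its 353 kb, 8 of them upstream of the transcript of longest coding sequence, and 6 were called in all 10 Pass lists. The closest pair, 1761 bp apart, had median percentiles of 86.6 and 97.6, and the member nearest the gene's start one of 94.5. All 4 Low pass lists called these 3. Rere, which encodes an atrophin corepressor of nuclear receptor pathways, held 9 members in 4 introns over 218331 bp, only 1 of which was called in all 4 Low pass lists. That member lay in intron 4 at a median percentile of 92.3, while the other 8 had median percentiles between 14.2 and 65.5. Sgms1, a sphingomyelin synthase gene, held 8 members, the highest in intron 2 at 97.2, and 7 of the 8 were called in at least 1 Low pass list.

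Tmem131 held 7 members, 4 of them in intron 2, and none had the composite. The one at chr1:36919232-36921209 lay at a median percentile of 99.7 with 4 of 5 Fail lists calling it, and a second member in the same intron at 91.4, while 4 others lay between 19.4 and 32.6. Ccnd3 encodes cyclin D3, which sets how many times red cell precursors divide. It held 6 members in 94.6 kb, 4 of them in intron 1, where the one at chr17:47535373-47536636 reached a median percentile of 99.3 and a median fold enrichment of 62.2. Only that one was called in all 10 Pass lists. Kalrn encodes a guanine nucleotide exchange factor. All 6 of its members lay within 58414 bp of its 604 kb, in introns 34 to 44 of 59, with the highest at 97.6 and 93.1.

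Col4a3, a basement membrane collagen gene, held 6 members, 3 of them in intron 1 and 4 called in all 10 lists, with median percentiles of 19.4 to 85.8. Nav2, a gene of axon guidance, held 6 over 329146 bp, of which 3 were called in all 4 Low pass lists and the other 3 in none. Nck2, Nsmaf and Zfpm1 also held 6. Among the hosts of 6 or more that are not read-through loci, members were densest in Zfpm1 (10.9 per 100 kb) and Nsmaf (10.3), and least dense in Nav2 (0.855).

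**Figure D5:**
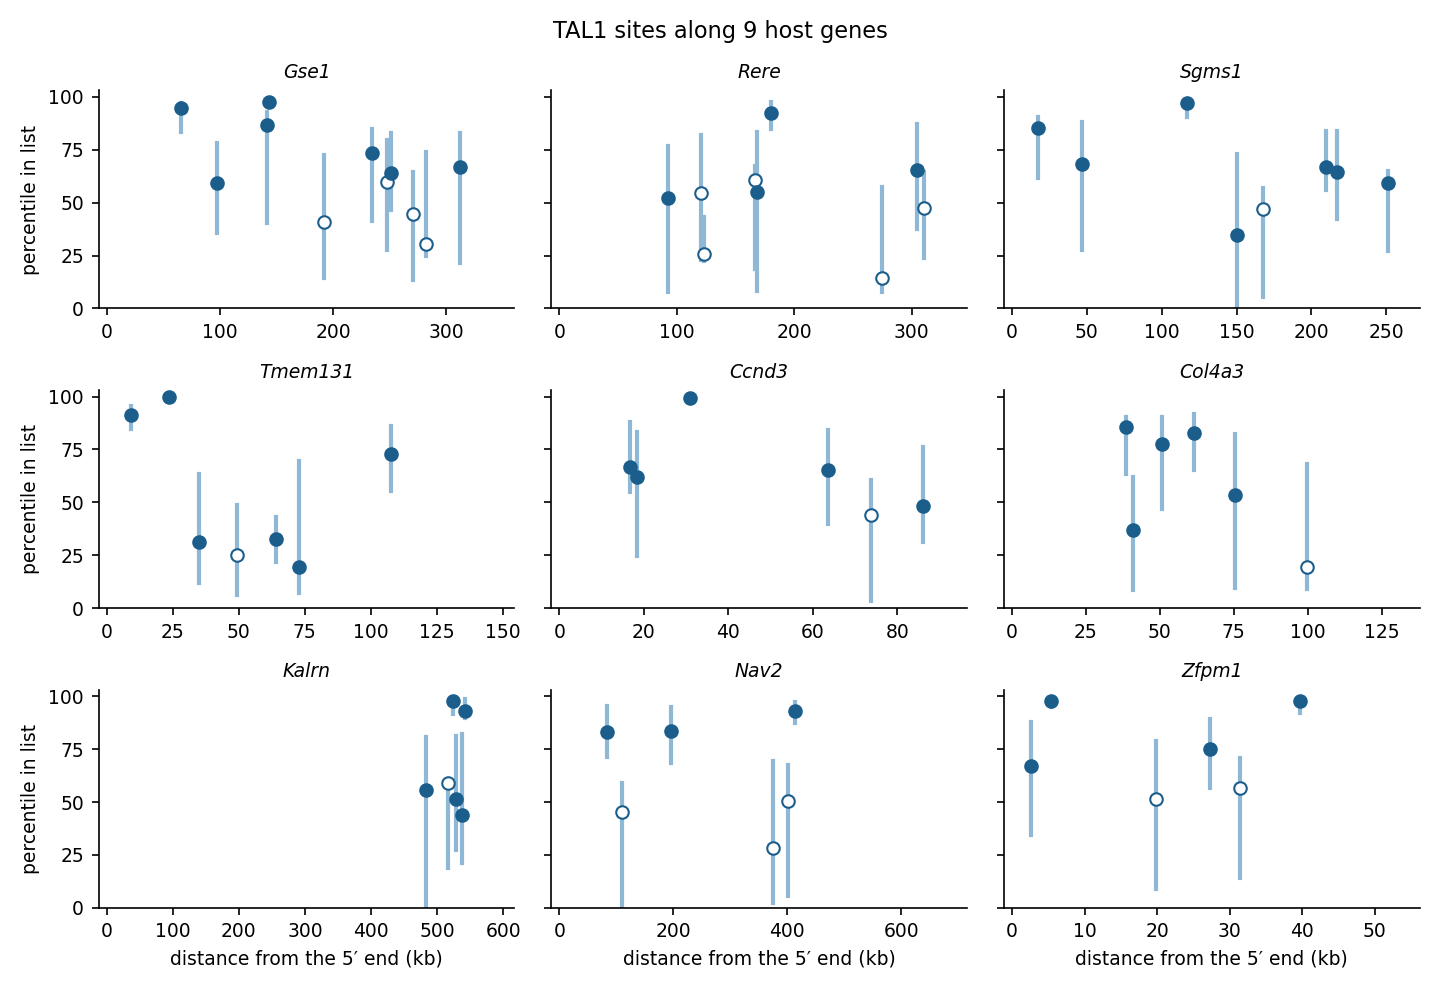
Members along 9 host genes, by distance from the 5′ end of the gene in kb (horizontal) and percentile in the Pass lists (vertical). Points are medians over the Pass lists that called the site, lines run from the lowest to the highest list, and filled points were called in at least 1 Low pass list. In Zfpm1, 2 of 6 members lie above 97, and in Kalrn all 6 lie in the later part of the gene.

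The regulators of red cell genes below come from a chosen list, and each was named because it hosted a member. Of 32 erythroid transcription regulators, 18 hosted a member (56.3%, beside 8.17% of all protein-coding genes), with 37 members in all. The median length of the listed genes was 32.0 kb. The lists were drawn up with earlier results of these data known, so these counts describe the lists and are not independent support. Of the 37 members, 17 (45.9%, beside 39.5% of all members) were called in all 10 Pass lists, 22 (59.5%, beside 61.5%) in at least 1 Low pass list and 8 (21.6%, beside 8.17%) in at least 1 Fail list.

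Zfpm1 encodes FOG1, the partner protein of GATA1, and held 6 members in introns 1 and 3. Those 5024 bp and 39682 bp from its start, at chr8:122286579-122288404 and chr8:122321185-122322462, had median percentiles of 97.8 and 97.6 and were called in all Low pass lists. The other 4 lay between 51.4 and 74.8. Runx1, a regulator of blood stem cells and megakaryocytes, held 4 members in intron 2, of which those at chr16:92801228-92802330 and chr16:92821665-92822942 had percentiles of 95.2 and 97.2. Cbfa2t3, whose product ETO2 is a corepressor within the TAL1 complex, held 3, with percentiles of 28.5, 71.3 and 92.0. Foxo3, Ssbp3 and Tcf12 held 3 each, and none of these 9 exceeded 74.2.

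Other regulators held 1 or 2. Nfe2, a globin gene activator, had a member at a median percentile of 99.5 with a median fold enrichment of 67.0. This member overlapped the edge of the annotated gene, with its centre just outside it. Its nearer edge lay 2491 bp from the nearest protein-coding start. E2f2, which drives the cell cycle, had one in intron 1 at 97.6, and Gata1 one at 97.2, outside its chosen transcript. Gata1 is disrupted in this line, and the site lies at chrX:7970936-7972053. The Gata2 member in intron 4, whose composite is shown above, is known as an enhancer of Gata2 in blood stem cells. It was called in all 10 Pass lists at a median percentile of 50.7 and a median fold enrichment of 11.8, and in 2 Low pass lists. Ikzf1, Sox6 and Ssbp2 held 2 each, with percentiles of 84.5 and 35.3, 11.3 and 46.8, and 72.5 and 45.0. Gfi1b, Bcl11a, Rb1, Rcor1 and Tcf3 held 1 each, with percentiles from 27.1 to 64.6.

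Of 28 genes of heme and iron, 13 (46.4%, beside 8.17% of all protein-coding genes; median length 20.2 kb) hosted 18 members. Of these, 14 (77.8%, beside 39.5% of all members) were called in all 10 Pass lists, 15 (83.3%, beside 61.5%) in at least 1 Low pass list, and 12 (66.7%, beside 34.5%) lay in first introns. Alas2, the first enzyme of heme synthesis in red cells, held one in intron 1 (90.7) and one in intron 8 (86.1), both with a composite and both called in all 4 Low pass lists. Alad and Uros follow in the same pathway. Alad held one member at 96.7, 3153 bp wide, and Uros a pair at 88.9 and 77.0. Fech, which inserts the iron, held one at 93.2 in intron 1. Abcg2, a porphyrin exporter, held one at 97.4 with 2 Fail lists calling it, and Ncoa4, the receptor that sends ferritin to lysosomes, one at 91.1. Tmem14c, a porphyrin carrier of mitochondria, held a pair at 75.4 and 90.4. In Tfrc, the transferrin receptor gene, the member 3346 bp from the start lay at 79.2 in 10 lists, while the one 1669 bp from it was called in 5 lists. Slc25a38, the mitochondrial glycine carrier, held one at 87.8 and another, in 6 lists, at 27.9. Slc11a2, Snx3, Abcb10 and Steap3 held 1 each, with percentiles from 49.7 to 75.9.

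Of 28 genes of the red cell membrane and its cytoskeleton, 13 (46.4%, beside 8.17% of all protein-coding genes; median length 33.2 kb) hosted 21 members. Of these, 16 (76.2%, beside 34.5% of all members) lay in first introns, and 11 (52.4%, beside 39.5%) were called in all 10 Pass lists. Gypc held 4, all in intron 1 and all called in 10 lists, at median percentiles of 97.1, 99.9, 65.2 and 62.1. Sptb, the β-spectrin gene, held a pair in intron 1 at 94.3 and 96.6, both with the composite. Ank1, the gene of ankyrin, held one at 95.5 in intron 1, and Rhd one at 93.4. The Ank1 site was centred 79390 bp from the start of the gene, and its nearer edge lay 3472 bp from the nearest start. Add2, Dmtn, Epb41 and Piezo1 held 2 each, of which only the second in Dmtn (83.1) lay above 70. Add1, Cd59a, Tmcc2 and Xk held 1 each, between 30.2 and 59.3.

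Of 22 genes of erythropoietin and KIT signalling, 7 (31.8%, beside 8.17% of all protein-coding genes; median length 55.96 kb) hosted 14 members, and 1 of these (7.14%, beside 17.9% of all members) was called in all 4 Low pass lists. That member was one of 5 in intron 2 of Bcl2l1, the gene of the survival protein BCL-XL, at 92.1. Kit, the receptor of stem cell factor, held 2, each called in 5 Pass lists, at 25.7 and 34.9 and in no Low pass list. Gab2, Pik3r1, Jak2, Lyn and Ptpn11 had median percentiles of 22.6 to 70.0. Of 20 genes of organelle clearance and enucleation, 6 (30%, beside 8.17%; median length 20.2 kb) hosted 9 members. The highest of these was in coding exon 2 of Bnip3l, the mitochondrial clearance receptor NIX, at 97.6, followed by one in intron 1 of Ube2o at 87.5 and one in Xpo7 at 77.7. Atg7, Fbxo7 and Kif23 held 1 each, between 33.1 and 65.2.

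Of 22 genes of megakaryocytes and platelets, 5 (22.7%, beside 8.17%; median length 15.97 kb) hosted 9 members, with Itgb3, the gene of integrin β3, holding 3 in intron 1 at 73.6, 93.5 and 72.5. Rab27b held 3, and Itga2b, Fli1 and Meis1 1 each, called in 5 to 8 lists except for 1 of Rab27b, which was called in 10. Of 26 genes of granulocytes, monocytes and lymphocytes, 1 hosted a member (3.85%, beside 8.17%). This was Spi1, the gene of PU.1, with a site in intron 2 in 6 Pass lists and no Low pass list. Of 20 genes of liver, muscle and neurons, 1 did (5%, beside 8.17%). This was Mbp, the myelin basic protein gene, with a pair in intron 1 in all 10 Pass lists at 80.6 and 53.7. The median gene length was 8.26 kb in the granulocyte, monocyte and lymphocyte list and 17.6 kb in the liver, muscle and neuron list.

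Members stood alone more often than in groups. Another kept TAL1 site lay within 10 kb, centre to centre, of 739 members (29.9%), a share close to those of sites between genes (30.8%), at promoters (30.7%) and overlapping CTCF (30%). The median distance to the nearest kept site was 27368 bp. For 569 of the 739 (77.0%) the nearest site was a member in the same gene, and for 102 it was a promoter site. The share was 18.1% within 5 kb and 48.6% within 25 kb. Without the library of 221 bp it was 27.7%. Chained at 10 kb, 1734 members stood alone, 517 were in pairs of kept sites, 154 in groups of 3, 49 in groups of 4 and 19 in groups of 5.

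The 7 groups of 5 were named after their values were seen. Kalrn held the only one made wholly of members, over 25068 bp from first to last centre. Nprl3 held 4 members and its own promoter site over 23371 bp (chr11:32245221-32269798). Introns of Nprl3 are known to carry the distant enhancers of the neighbouring α-globin genes. From the 5′ end of the gene, the members lay in intron 1 (91.6), intron 2 (86.6), intron 4 (57.4) and intron 6 (99.3), and the last had the composite and a median fold enrichment of 61.0. All but the one in intron 4 were called in all 4 Low pass lists. Nt5c3, a pyrimidine nucleotidase of red cells, held 4 in intron 1 with 1 promoter site, all 4 between 54.9 and 65.1. Glrx5, a gene of iron-sulfur cluster assembly, held 2 in intron 1 at 96.1 and 76.6, beside 2 CTCF-overlapping sites and 1 promoter site. The others held 1 or 2 members of lower rank, in Unc13d and Wbp2 (36.2 and 21.1), Csf2rb (18.6) and Ap5s1 (43.6).

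CTCF was little called at members in other cells too. Per the paper, the primary cells were sorted from bone marrow of young male C57BL6 mice. The lists of common myeloid and granulocyte-monocyte progenitors were graded Low pass, and those of the other primary cells Pass. In the 11 CTCF lists of primary mouse blood cells, 98 members (3.96%, beside 10.6% of all kept sites) overlapped a peak in at least 1 list and 8 (0.323%, beside 4.2%) in 6 or more. The rule took out sites with a CTCF peak in the cell line, which all kept sites include, and its part in the gap was not tested. Sites between genes were chosen by the same CTCF rule. In megakaryocyte colony-forming cells a CTCF peak overlapped 2.55% of members, 3.29% of sites between genes and 12.1% of promoter sites. In the erythroblast list of 250 bp the shares were 0.364%, 0.156% and 0%. Members had the larger share in the lists of erythroid colony-forming cells and erythroblasts. Sites between genes had it in every other primary list. These differences were not tested. Each of the Pass CTCF lists of the line other than library 695 overlapped 0.0404% to 1.78% of members.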

How the data were processed

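The samples comprised 65 libraries of mouse blood cells, from ChIP-seq or from unenriched input. The 53 TAL1 or CTCF peak lists among them were used, grouped by the labels' factor, cell type and assessment. Per the submitters' processing notes and the study's methods, reads were handled with bcl2fastq, mapped to mm10 with Bowtie, and peaks were called with MACS per library, mostly against a composite input. The notes name bcl2fastq 1.8.4 and Bowtie 1.0.0, while the methods name an older Bowtie version, and which was used was not settled. The deposited lists give, as the authors made them, each peak's fold enrichment (a linear ratio over background) and its -log10 p, which was at least 5. Read depth is not given in the sources used here. The false discovery column, the RNA polymerase II lists and the input libraries were not used.

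Peaks were merged and classed in Python 3.11.15 with NumPy 2.4.6, SciPy 1.17.1 and pysam 0.24.0, with figures in matplotlib 3.10.9. Each host was read through its protein-coding transcript of longest coding sequence. Motifs were searched in 300 bp around each centre. Shares carry Wilson 95% intervals, which cover counting error only. Tests compared shares called in the 9 libraries that did not choose the sites, by exact two-sided sign-flip permutation (512 flips) with Benjamini-Hochberg adjustment over 6 tests and a threshold of 0.05. Named were the 10 genes with most members, the 10 members of highest median percentile in all 10 Pass lists, and every listed gene with a member, except 1 that is not reported here. Other genes named were chosen after their values were seen. The members and the gene lists were chosen with earlier results of these data known. Alternatives changed the number of lists, the -log10 p, the promoter distance, the CTCF lists, the overlap, the transcript, the neighbour distance, the motif window and spacing, the rank and the libraries, and 1 alternative, leaving out read-through genes, was chosen after seeing the data. The procedures were checked on simulated data.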

Additional observations from a re-analysis of the deposited data

How the results depend on the processing

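Of 353 recomputed values, 269 stayed within the tolerance set for their kind, which was the same direction and side of the threshold for a tested difference, 1.5 times for a count, the Wilson interval for a share and 1 SD over the Pass lists for the median percentile. Depth is unknown, sites were chosen by their calls, and all libraries come from 1 line. No paired analysis was possible because the replicate numbers were given in accession order and pair no libraries across groups, while each test compared classes of sites within a library. The cause of the changes below was not tested, beyond the sites or libraries each alternative removes.

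Members numbered 3898 with 3 or more lists, 1596 with 8 or more, 977 with all 10 and 1427 with a -log10 p of at least 10. Hosts numbered 830 with all 10 lists and 1142 with that p, and hosts of 2 or more members 828, 274, 142 and 240 under the same 4 settings. The share of members with a neighbour was 38.3%, 23.2%, 18.8% and 21.7% under them, 27.7% without the Pass library of 221 bp, and 18.1% and 48.6% at 5 and 25 kb. The composite share was 23.9% with 3 or more lists, 29.6% with all 10 and 45.4% with 7 to 9 bases of spacing. In windows of 200 and 500 bp the GATA share was 84.5% and 94.6% and the E-box share 41.0% and 62.8%, and the E-box share was 53.1% with all 10 lists. Median percentile was 65.3 with 8 or more lists and 78.1 with all 10, and the first intron share of members 32.3% with a promoter distance of 2000 bp.

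Hosting genes of the erythropoietin and KIT list numbered 11 with 3 or more lists, 4 with 8 or more, 2 with all 10 and 3 with a -log10 p of at least 10. Those of the megakaryocyte list numbered 3, 2 and 3 in the last 3 settings, and those of the granulocyte, monocyte and lymphocyte list 0 in each. With all 10 lists, 11 erythroid regulators and 7 membrane genes hosted a member.

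For the shares called, all differences are in percentage points with adjusted p-values from the exact permutation test. The Low pass libraries alone cannot reach the threshold. In them gene body sites differed from promoter sites by -3.16 and from CTCF-overlapping sites by -3.02, members of hosts with several sites from lone members by 4.11, and members with the composite from those without by 7.52. With each Pass library held out, the difference from sites between genes was -1.17 (adjusted p = 0.00586) and from promoter sites -2.09 (adjusted p = 0.15). Those libraries set one another's sites, so their differences are not independent. The difference from sites between genes became 0.20 with a -log10 p of at least 10. That from CTCF-overlapping sites was -1.57 with 8 or more lists (adjusted p = 0.170) and -2.48 with all 10 (adjusted p = 0.0781). First introns against others gave 0.0794 with all 10 lists, 1.12 with a -log10 p of at least 10 (adjusted p = 0.0234), 0.11 without read-through genes and 0.15 without the Low pass library of 263 bp. Hosts of several sites gave 0.00367 with all 10 lists (adjusted p = 1). Leaving out 1 library gave -0.59 to -0.14 against sites between genes, -2.45 to -1.87 against promoter sites, -2.72 to -1.93 against CTCF-overlapping sites (adjusted p 0.0313 to 0.0625), -0.17 to 0.15 for first introns, 1.70 to 2.32 for hosts of several sites (adjusted p 0.0313 to 0.0820) and 3.31 to 4.51 for the composite (adjusted p 0.0234 to 0.0469).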
